A study of Mus musculus with 6 samples.

Results

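Chemokines are small secreted proteins that guide the movement of cells, and this account follows the 38 chemokine ligand genes of 19505 genes measured in cultured embryonic mouse salivary glands. A gene was a member where its symbol in the platform annotation was Ccl with a number and at most 1 further letter, Cxcl with a number, Cx3cl1 or Xcl1. The 38 genes had 39 probe sets. The rule used names only, though it was set with earlier results of these data known. The treated glands were exposed to TGF-β1, a secreted growth factor, and the control glands received no addition. Both groups came from embryos at a stage that the labels write as T13, both were kept in culture for 72 hours, and each was measured on 3 Affymetrix arrays (TGF-β1 1 to 3 and control 1 to 3). The labels give no strain, no dose of TGF-β1, no type of salivary gland and no litter or culture behind a replicate number, so that the p-values reflect the spread of these 6 arrays alone, part or all of which may be technical.

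Chemokines are named for the spacing of the conserved cysteines near their start (CC, CXC, CX3C and XC) and act through G protein-coupled receptors on the moving cell. Some are made constantly and place lymphocytes or progenitor cells in tissues, while others are switched on by NF-κB or by interferons in epithelial, stromal and immune cells during inflammation and after tissue is injured or explanted. In a developing gland, mesenchyme, epithelium, vessels and resident macrophages can all make them. A value below is the deposited log2 expression value of a probe set, on which 1 unit is a doubling. Levels are compared between arrays within a gene or a list of genes, and Ccr2 is also set against the lower quartile of arrays.

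2 arrays were unlike the rest, TGF-β1 3 moderately and control 3 strongly. Control 3 correlated with the others at 0.550 to 0.601 over all genes, TGF-β1 3 with the 4 remaining arrays at 0.948 to 0.953, and those 4 among each other at 0.974 to 0.990 (Pearson, across genes, which are not independent replicates). Control 3 also had a narrower range of values. Its lower and upper quartiles over probe sets were 5.79 and 7.84, against 5.11 to 5.15 and 8.32 to 8.39 in the other 5 arrays. A high or low value of a gene in control 3 cannot be told apart from this narrower range. The mean of Actb, Gapdh, Rplp0 and Eef1a1, genes that every cell uses, was 8.19 in control 3 and 12.12 to 12.23 in the other 5 arrays. Of the markers of the labelled tissue, the mean of the epithelial genes Epcam, Cdh1, Krt8 and Krt18 was 11.59 to 11.96 in the TGF-β1 arrays, 11.45 and 10.95 in controls 1 and 2 and 8.27 in control 3. The salivary epithelial markers Aqp5, Bhlha15, Sox10 and Bpifa2 averaged 10.09 to 10.38 in the TGF-β1 arrays and 6.76 to 7.73 in the controls. The gap differed widely between these markers. Bpifa2 was at 12.99 to 13.79 in the TGF-β1 arrays and 4.65 to 7.68 in the controls, and Aqp5 at 9.33 to 9.40 and 8.25 to 9.12. Because control 3 and TGF-β1 3 were unlike the rest, results are given from fits with and without them.

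In an array-weighted fit, which lets control 3 and TGF-β1 3 count for less, 6 of the 38 chemokine ligand genes were lower with TGF-β1 and 0 were higher. They were Cxcl1, Cxcl2, Cxcl10, Cxcl12, Ccl2 and Ccl7, with differences of -2.57 to -0.79 log2 units (TGF-β1 minus control). The other 32 did not pass. The share of all genes that fell in that fit was 3.44%, and the share that rose was 3.45%. The threshold was an adjusted p under 0.05 (limma, Benjamini-Hochberg over all 19505 genes), and "fell" below means past it with array weights. The weights are treated as known, which makes these p-values too small. In the unweighted fit of the 6 arrays 0 of 38 passed, as did 0% of all genes in either direction. At an unadjusted p under 0.05 in that fit, limma listed 3 of the 38, all lower. It listed 0.533% of all genes as lower and 1.99% in either direction. In a 4-array fit, which leaves out TGF-β1 3 and control 3 and has no weights, 4 of the 38 were lower (Cxcl2, Cxcl10, Ccl2 and Ccl7) and 0 higher, where 1.45% of all genes were lower and 1.14% higher. The array-weighted fit was also refitted with 1 array left out. Leaving out TGF-β1 1, TGF-β1 2, control 1 or control 2 ended all 6. In those refits 0 of all 19505 genes passed as lower, and 8, 12, 0 and 0 passed as higher, in that order. Leaving out control 3 gave 3 members lower (Cxcl2, Ccl2 and Ccl7), where 1.53% of all genes were lower and 1.26% higher. Leaving out TGF-β1 3 gave 4 lower (Cxcl2, Ccl2, Ccl7 and Ccl8), where 1.03% were lower and 0.897% higher. The weights themselves moved in these refits. Without any 1 of the TGF-β1 arrays, control 1 had a weight of 6.90 to 10.4 and controls 2 and 3 had 0.0118 to 0.161, so that the control arm was in effect 1 array, and without control 1 or control 2 the 2 controls left shared 1 weight with control 3 among them. The arrays hold whole glands, so fewer cells of a type and less RNA per cell cannot be told apart.

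**Figure D1:**
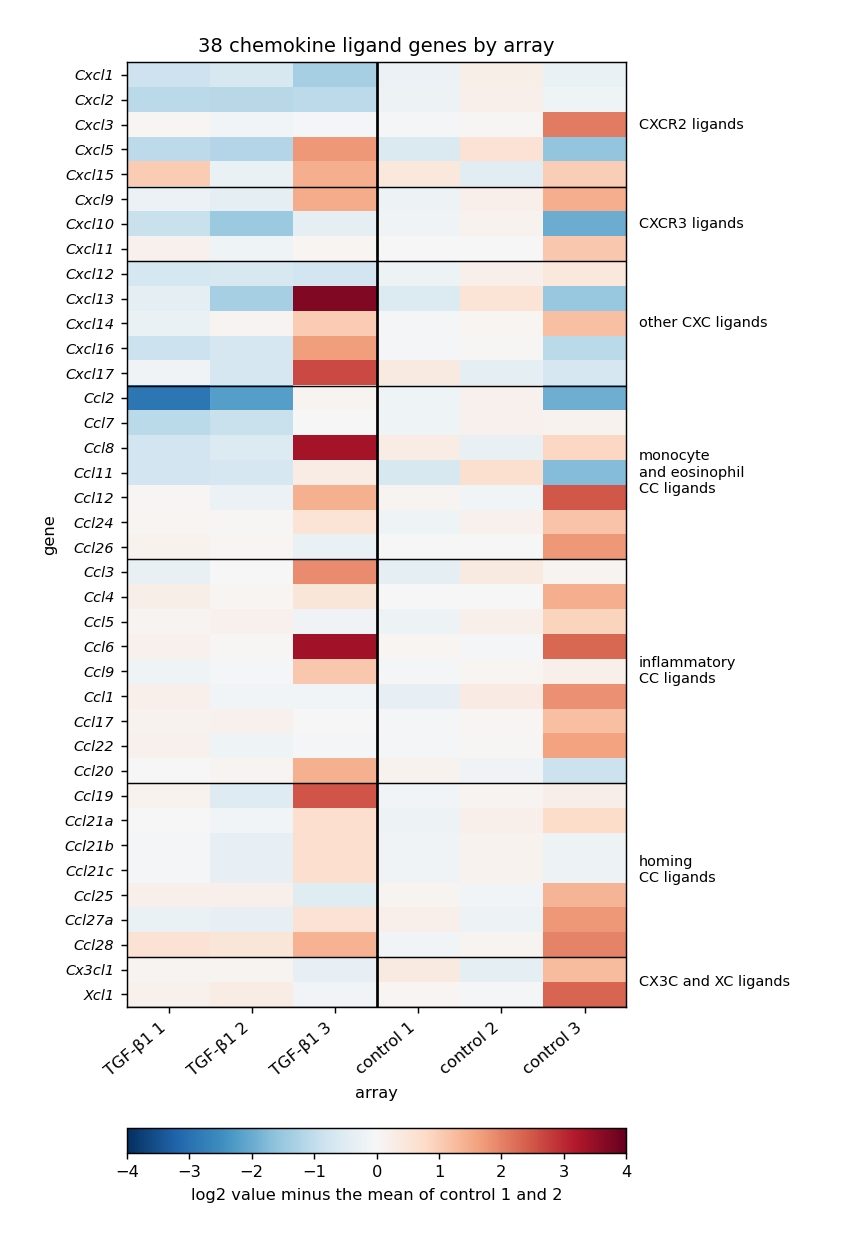
The log2 value of each of the 38 chemokine ligand genes in each array, minus the mean of controls 1 and 2 for that gene, with genes in rows by role and arrays in columns (TGF-β1 left of the line, control right of it); red is higher and blue is lower. Ccl2 is bluest in TGF-β1 1 and 2, Cxcl13, Ccl8 and Ccl6 are reddest in TGF-β1 3, and control 3 is higher than the other controls by over 1 log2 unit in 17 genes and lower in 6, where 33.6% and 25.1% of all genes are.

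Cxcl1, Cxcl2, Cxcl3, Cxcl5 and Cxcl15 attract neutrophils, mostly through the receptor CXCR2. Cxcl2 was at 6.39, 6.36 and 6.41 in TGF-β1 arrays 1 to 3 and at 7.26, 7.66 and 7.29 in control arrays 1 to 3. Its TGF-β1 values were nearly equal and lay below all 3 controls. Cxcl2 averaged 6.39 ± 0.02 with TGF-β1 and 7.41 ± 0.22 without it (SD, n = 3 each), a difference of -1.02 ± 0.30 (SE) in the unweighted fit (adjusted p = 0.776), and it fell by 1.17 ± 0.15 with array weights (adjusted p = 0.00124). Without control 3 the difference was -1.08 ± 0.18 (adjusted p = 0.211), and the 4-array fit gave -1.09 ± 0.18 (adjusted p = 0.0318), which passed. Cxcl1 was at 6.41, 6.63 and 5.94 in TGF-β1 arrays 1 to 3 and at 7.02, 7.49 and 7.00 in control arrays 1 to 3. The groups did not overlap here either, with TGF-β1 3 lowest of all. Its difference was -0.84 ± 0.34 unweighted (adjusted p = 0.776), it fell by 0.91 ± 0.17 with array weights (adjusted p = 0.00902), and the 4-array fit gave -0.73 ± 0.20 (adjusted p = 0.11), which did not pass.

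The other members of this receptor group did not pass. Cxcl3, the gene next to Cxcl15 in the same cluster, was at 6.69, 6.49 and 6.57 in TGF-β1 arrays 1 to 3 and at 6.58, 6.65 and 8.68 in control arrays 1 to 3. The 5 arrays other than control 3 lay within 6.49 to 6.69, and control 3 was high. The difference was -0.72 ± 0.59 with all arrays and -0.03 ± 0.16 without control 3. Cxcl5 was at 5.40, 5.26 and 8.18 in TGF-β1 arrays 1 to 3 and at 5.86, 6.99 and 4.85 in control arrays 1 to 3. TGF-β1 3 was above every control and TGF-β1 1 and 2 were below controls 1 and 2. Its difference was 0.38 ± 0.89 unweighted and -1.17 ± 0.38 with array weights (adjusted p = 0.093), opposite in sign. Cxcl15, a neutrophil attractant described in mouse lung, ranged over 5.00 to 6.70 in the TGF-β1 arrays and 4.83 to 6.25 in the controls. Of the 5 genes, 2 fell with array weights and 3 did not pass.

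Cxcl1, Cxcl2 and Cxcl3 lie in 1 chromosomal cluster and carry the same run of bases close to their starts. Cxcl1 and Cxcl2 fell and Cxcl3 did not pass, and whether they differ from Cxcl3 was not tested. Their promoter windows (250 bases before to 50 after the start, RefSeq, GRCm38.p6) are shown for that shared run, together with that of Cxcl10, which fell as well. They are chr5:90890995-90891294 on the plus strand for Cxcl1, chr5:90903649-90903948 on the plus strand for Cxcl2, chr5:90785851-90786150 on the plus strand for Cxcl3 and chr5:92348840-92349139 on the minus strand for Cxcl10. Capitals mark matches on either strand to an NF-κB-type motif (GGGA, any 2 bases, TTCC) and, in Cxcl10 alone of the 4, to an interferon response motif (GAAA, any 2 bases, GAAA), which comes first in that window.
Cxcl1: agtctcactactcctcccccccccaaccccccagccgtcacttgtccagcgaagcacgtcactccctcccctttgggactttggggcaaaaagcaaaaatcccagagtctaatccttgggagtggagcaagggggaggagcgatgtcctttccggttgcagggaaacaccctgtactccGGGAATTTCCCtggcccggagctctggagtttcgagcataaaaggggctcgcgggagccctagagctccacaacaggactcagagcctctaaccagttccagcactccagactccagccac
Cxcl2: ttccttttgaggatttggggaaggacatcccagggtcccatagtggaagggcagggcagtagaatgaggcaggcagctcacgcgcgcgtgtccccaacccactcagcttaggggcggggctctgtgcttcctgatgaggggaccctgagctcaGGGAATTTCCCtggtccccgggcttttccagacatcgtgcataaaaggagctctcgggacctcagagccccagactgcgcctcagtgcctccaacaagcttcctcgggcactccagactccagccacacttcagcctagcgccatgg
Cxcl3: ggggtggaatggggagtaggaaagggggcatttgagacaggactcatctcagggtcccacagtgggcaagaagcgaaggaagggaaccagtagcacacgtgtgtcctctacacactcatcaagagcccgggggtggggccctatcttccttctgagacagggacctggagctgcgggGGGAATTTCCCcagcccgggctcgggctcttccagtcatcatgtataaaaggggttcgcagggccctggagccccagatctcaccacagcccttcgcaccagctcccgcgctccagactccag
Cxcl10: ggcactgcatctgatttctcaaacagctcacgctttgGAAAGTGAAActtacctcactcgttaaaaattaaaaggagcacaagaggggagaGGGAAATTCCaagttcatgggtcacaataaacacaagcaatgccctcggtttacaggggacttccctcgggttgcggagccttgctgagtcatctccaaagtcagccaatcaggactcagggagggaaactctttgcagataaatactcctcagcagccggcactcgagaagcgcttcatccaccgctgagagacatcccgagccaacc
The NF-κB-type match on the plus strand of the window began 71 bases before the start in Cxcl1, 97 in Cxcl2 and 73 in Cxcl3, and in each it overlapped a match on the opposite strand, so that the capitals run over GGGAATTTCCC. In Cxcl10 the match began 159 bases before the start. Of the 29 promoter entries found for 26 of the 38 genes, 5 held the NF-κB-type motif (Cxcl1, Cxcl2, Cxcl3, Cxcl10 and Ccl1), against 1.47% of the 32851 windows of the same length. The interferon response motif was in 3 of the 29 entries (Ccl19, Cxcl10 and Cxcl14) and in 3.44% of all windows, the AP-1 letters TGANTCA in 5 and 7.81%, and the Smad letters CAGACA in 9 and 21%. These counts are of entries, not genes, and every entry of Ccl27a, some of which overlap, held the Smad letters. All motifs were sought on both strands, and a match describes letters, not a binding site. Ccl1, with the NF-κB-type motif, was at 5.71, 5.38 and 5.38 in TGF-β1 1 to 3, against 5.19, 5.81 and 7.33 in controls 1 to 3, with only control 3 outside 5.19 to 5.81. Of the other genes that fell, Cxcl12 has an entry, which held none of these motifs, and Ccl2 and Ccl7 are among the 12 genes without an entry.

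Cxcl9, Cxcl10 and Cxcl11 are induced by interferons and attract activated T cells and natural killer cells through CXCR3. Cxcl10 was at 6.66, 6.08 and 7.16 in TGF-β1 arrays 1 to 3 and at 7.40, 7.71 and 5.57 in control arrays 1 to 3. All 3 TGF-β1 arrays were below controls 1 and 2, and control 3 was the lowest array of all. Its difference was -0.26 ± 0.62 with all arrays unweighted (adjusted p = 0.852) and -0.92 ± 0.33 without control 3 (adjusted p = 0.57). With array weights it fell by 1.12 ± 0.21 (adjusted p = 0.00786), and the 4-array fit gave -1.19 ± 0.22 (adjusted p = 0.0455), which passed. Cxcl9 was at 4.96, 4.81 and 6.66 in TGF-β1 arrays 1 to 3 and at 4.99, 5.38 and 6.65 in control arrays 1 to 3. Only TGF-β1 3 and control 3 exceeded 5.38, and its difference of -0.28 ± 0.24 with array weights did not pass (adjusted p = 0.579). Cxcl11 lay between 4.95 and 5.30 in every array but control 3, which was at 6.20. Of the 3 genes, 1 fell and 2 did not pass.

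**Figure D2:**
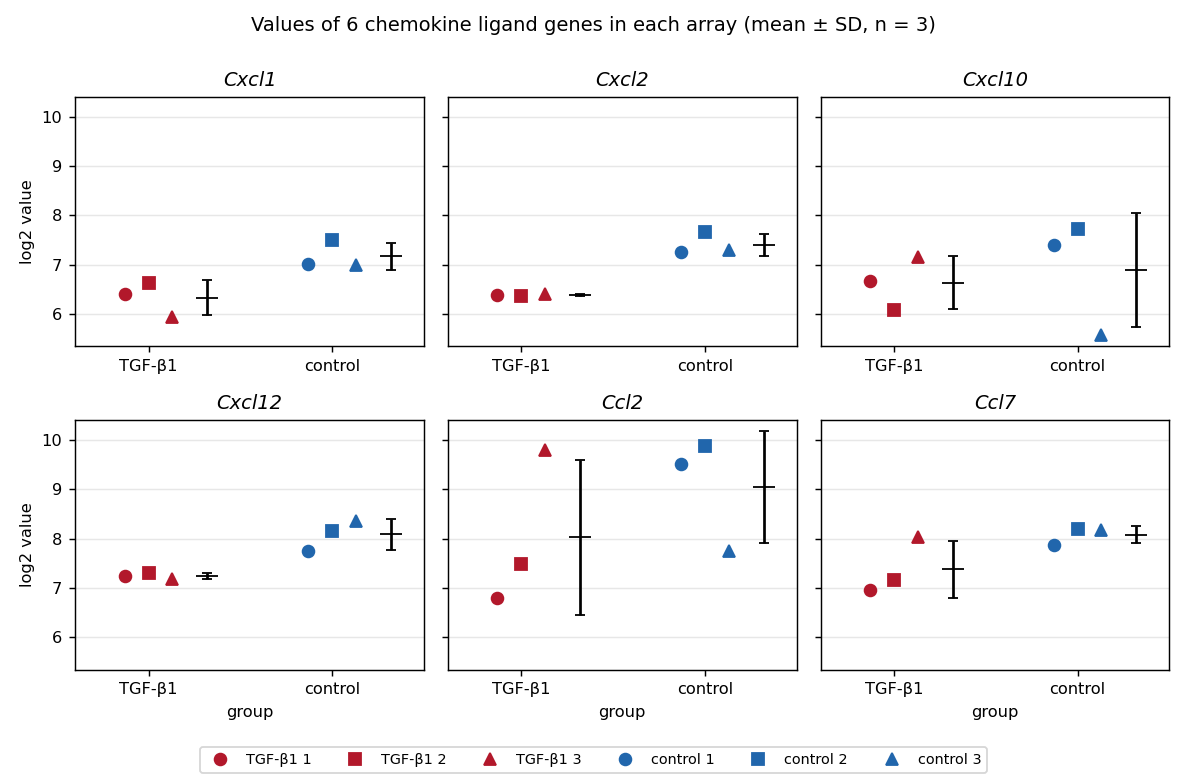
The log2 values of Cxcl1, Cxcl2, Cxcl10, Cxcl12, Ccl2 and Ccl7 in each array, TGF-β1 in red and control in blue with a symbol per replicate number, and beside each group its mean ± SD (n = 3). The groups are apart in Cxcl1, Cxcl2 and Cxcl12; in Ccl2 TGF-β1 3 (9.80) lies among the controls, and in Cxcl10 control 3 (5.57) lies below every TGF-β1 array.

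The remaining CXC ligands have separate receptors and roles. Cxcl12, which mesenchymal cells make and which holds and guides progenitor cells, vessels and nerves through CXCR4, was at 7.24, 7.30 and 7.18 in TGF-β1 arrays 1 to 3 and at 7.75, 8.15 and 8.36 in control arrays 1 to 3. The TGF-β1 arrays were nearly equal and all lay below the controls. Cxcl12 averaged 7.24 ± 0.06 with TGF-β1 and 8.09 ± 0.31 without it (SD, n = 3 each), a difference of -0.85 ± 0.31 unweighted (adjusted p = 0.776). It fell by 0.79 ± 0.15 with array weights (adjusted p = 0.00938), and the 4-array fit gave -0.68 ± 0.18 (adjusted p = 0.103), which did not pass. Cxcl1, Cxcl2 and Cxcl12 were the 3 of 38 members whose groups did not overlap over all 6 arrays, all lower, where 5.78% of all genes were lower and 5.8% higher in this way. The 3 are 7.89% of the members, a share near that of all genes. In either direction the share was 7.89% of members and 11.6% of all genes. Without control 3, Cxcl10 joined them, which made 4 of 38 lower against 12.3% of all genes, a share near that background.

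Cxcl16, a membrane-bound ligand of CXCR6 that also takes up oxidised lipids, was at 8.62, 8.81 and 11.16 in TGF-β1 arrays 1 to 3 and at 9.43, 9.52 and 8.39 in control arrays 1 to 3. TGF-β1 3 was the highest array and TGF-β1 1 and 2 were below controls 1 and 2. Its difference was 0.42 ± 0.72 unweighted, -0.66 ± 0.29 with array weights (adjusted p = 0.213) and -0.76 ± 0.15 in the 4-array fit (adjusted p = 0.0521), and none of these passed. Cxcl17, a ligand of mucosal epithelia, was at 8.15, 7.62 and 10.94 in TGF-β1 arrays 1 to 3 and at 8.65, 7.92 and 7.61 in control arrays 1 to 3. It was high in TGF-β1 3 alone, and its difference was 0.84 ± 0.85 unweighted, 0.02 ± 0.37 with array weights and -0.40 ± 0.28 in the 4-array fit, none of which passed. Cxcl14, made by many epithelia, was at 4.83, 5.21 and 6.12 in TGF-β1 1 to 3, against 5.01, 5.17 and 6.31 in controls 1 to 3, and its difference was -0.11 ± 0.50 unweighted and 0.29 ± 0.38 without control 3. Cxcl13, which draws B cells through CXCR5, was at 6.14, 5.19 and 10.21 in TGF-β1 1 to 3, against 5.98, 7.06 and 5.00 in controls 1 to 3, with TGF-β1 3 above every other array by over 3 log2 units. Of the 5 genes in this group, 1 fell and 4 did not pass.

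Ccl2, Ccl7, Ccl8, Ccl11 and Ccl12 are neighbours on chromosome 11. Ccl2, Ccl7 and Ccl12 attract monocytes (mainly through CCR2), and Ccl11 attracts eosinophils through CCR3. Ccl2, the main monocyte attractant, was at 6.80, 7.48 and 9.80 in TGF-β1 arrays 1 to 3 and at 9.51, 9.87 and 7.75 in control arrays 1 to 3. TGF-β1 1 and 2 were the lowest arrays, while TGF-β1 3 lay between controls 1 and 2, and control 3 was lower than the other controls. Ccl2 averaged 8.03 ± 1.57 with TGF-β1 and 9.04 ± 1.14 without it (SD, n = 3 each), and its difference was -1.02 ± 0.88 unweighted (adjusted p = 0.776) and -1.66 ± 0.84 without control 3 (adjusted p = 0.773). It fell by 2.57 ± 0.35 with array weights (adjusted p = 0.00169), the largest fall among the 38 in that fit, and the 4-array fit gave -2.55 ± 0.25 (adjusted p = 0.0117).

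Ccl7, which attracts monocytes and other leukocytes, was at 6.95, 7.16 and 8.03 in TGF-β1 arrays 1 to 3 and at 7.88, 8.20 and 8.18 in control arrays 1 to 3. TGF-β1 1 and 2 lay under every control and TGF-β1 3 between controls 1 and 3. Its difference was -0.71 ± 0.38 unweighted (adjusted p = 0.776), and it fell by 1.03 ± 0.18 with array weights (adjusted p = 0.00573). The 4-array fit gave -0.98 ± 0.17 (adjusted p = 0.0388). Ccl11 (eotaxin), the next gene along, was at 7.69, 7.78 and 8.76 in TGF-β1 arrays 1 to 3 and at 7.84, 9.10 and 6.75 in control arrays 1 to 3. Controls 1 and 2 differed by 1.26 log2 units, and the difference was 0.18 ± 0.64 unweighted and -0.97 ± 0.29 with array weights (adjusted p = 0.0708), opposite in sign, and did not pass. Ccl8 was at 4.30, 4.54 and 8.40 in TGF-β1 1 to 3, against 5.38, 4.78 and 5.89 in controls 1 to 3, high in TGF-β1 3 alone. Ccl12 was between 4.19 and 4.52 in TGF-β1 1 and 2 and controls 1 and 2, and at 5.85 in TGF-β1 3 and 6.88 in control 3. Ccl24 and Ccl26, further ligands of the eosinophil receptor, ranged over 4.20 to 6.49 in the TGF-β1 arrays and 4.47 to 7.08 in the controls. Of these 7 genes, 2 fell with array weights and 5 did not pass.

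**Figure D3:**
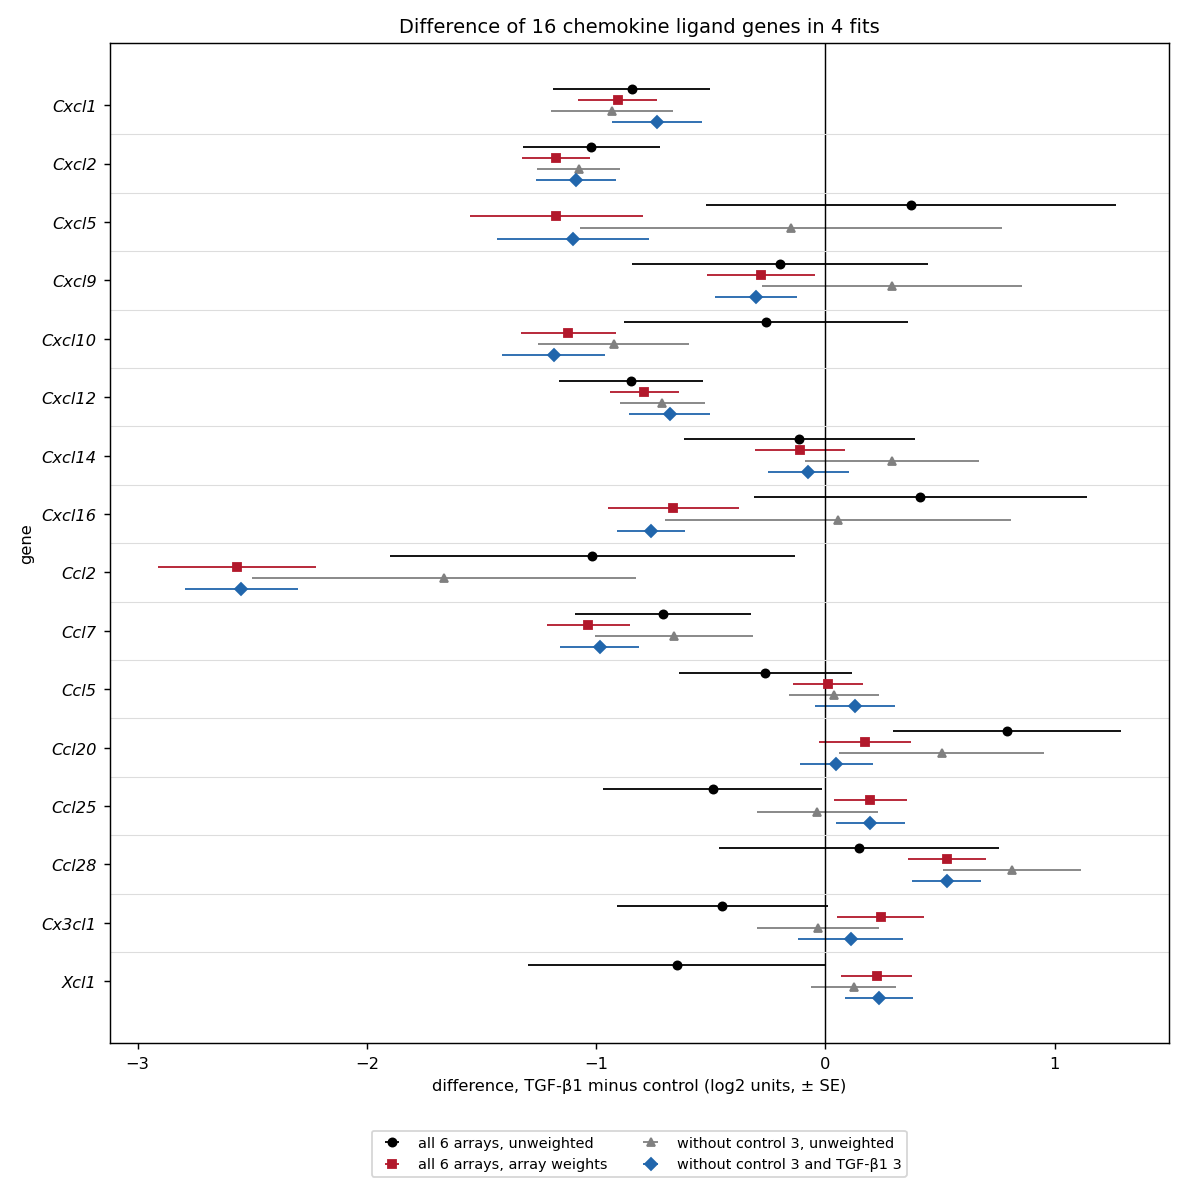
The difference, TGF-β1 minus control, in log2 units with its SE for 16 chemokine ligand genes (rows) in 4 fits (symbols), with the line at 0. Cxcl1, Cxcl2, Cxcl10, Cxcl12, Ccl2 and Ccl7 lie left of the line in all 4 fits, whereas Cxcl5 and Cxcl16 lie right of it with all arrays unweighted and left of it with array weights and in the 4-array fit.

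The inflammatory CC ligands Ccl1, Ccl3, Ccl4, Ccl5, Ccl6, Ccl9, Ccl17, Ccl20 and Ccl22 gave 0 passes in either direction, with a smallest adjusted p of 0.584 with array weights. Ccl20, an epithelial ligand of CCR6 that attracts dendritic cells and lymphocytes, was at 8.32, 8.43 and 9.76 in TGF-β1 arrays 1 to 3 and at 8.45, 8.20 and 7.47 in control arrays 1 to 3. TGF-β1 3 was high and control 3 low, while the other 4 arrays lay within 8.20 to 8.45. Its difference was 0.79 ± 0.50 unweighted and 0.05 ± 0.16 in the 4-array fit. Ccl5 (RANTES), which attracts T cells and other leukocytes, was at 5.39, 5.45 and 5.15 in TGF-β1 1 to 3, against 5.10, 5.49 and 6.19 in controls 1 to 3, a difference of 0.01 ± 0.15 with array weights. Ccl6, a rodent ligand made by myeloid cells, was at 7.45, 7.31 and 10.62 in TGF-β1 arrays 1 to 3 and at 7.33, 7.20 and 9.57 in control arrays 1 to 3. It was between 7.20 and 7.45 in the 4 arrays that resembled each other and above 9.5 in TGF-β1 3 and control 3. Ccl3, which draws monocytes and T cells, was at 7.99 in TGF-β1 3, against 5.73 to 6.46 in the other arrays. Ccl1, Ccl4, Ccl9, Ccl17 and Ccl22 ranged over 4.98 to 7.09 in the TGF-β1 arrays and 4.86 to 7.51 in the controls.

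The homing ligands guide lymphocytes to lymphoid organs and epithelia. Ccl28, which mucosal and salivary epithelium secretes and which brings antibody-producing cells through CCR10, was at 8.15, 8.07 and 8.96 in TGF-β1 arrays 1 to 3 and at 7.48, 7.68 and 9.58 in control arrays 1 to 3. All TGF-β1 arrays were above controls 1 and 2, and control 3 was the highest array. Its difference was 0.15 ± 0.61 unweighted, 0.81 ± 0.30 without control 3 (adjusted p = 0.598) and 0.53 ± 0.17 with array weights (adjusted p = 0.0921), and none of these passed. Ccl28 and Ccl4 were the 2 members above controls 1 and 2 in every TGF-β1 array, where 12.8% of all genes were. Ccl25, a ligand of CCR9 known from thymus and gut, was at 7.71, 7.73 and 7.03 in TGF-β1 arrays 1 to 3 and at 7.63, 7.42 and 8.90 in control arrays 1 to 3, and its difference was -0.49 ± 0.48 with all arrays and -0.03 ± 0.26 without control 3. Ccl27a, a skin ligand of CCR10, was at 6.49, 6.45 and 7.36 in TGF-β1 1 to 3, against 6.97, 6.57 and 8.52 in controls 1 to 3. The CCR7 ligand Ccl19 was high in TGF-β1 3 alone (7.60, against 4.59 to 5.32 in the other arrays).

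The Ccl21 genes are near-identical copies that also bind CCR7. Ccl21b and Ccl21c had identical values on all 6 arrays (7.80, 7.52 and 8.54 in TGF-β1 1 to 3, against 7.72, 8.01 and 7.65 in controls 1 to 3), so that they are 1 measurement under 2 names and the 38 genes hold 37 separate sets of values. Ccl21a was at 8.28, 8.17 and 8.94 in TGF-β1 1 to 3, against 8.08, 8.46 and 9.01 in controls 1 to 3. Ccl21b was the single member with 2 probe sets, and the other set was at 7.28, 6.95 and 8.01 in TGF-β1 1 to 3 and at 7.00, 7.43 and 7.63 in controls 1 to 3. Which copy a probe set measures is uncertain. Of the 7 homing ligands, 0 passed in either direction.

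Cx3cl1 (fractalkine), a membrane-bound ligand that CX3CR1-bearing macrophages recognise, was at 6.82, 6.80 and 6.38 in TGF-β1 arrays 1 to 3 and at 7.04, 6.35 and 7.95 in control arrays 1 to 3. TGF-β1 1 and 2 lay between controls 1 and 2, and control 3 was highest. Xcl1 (lymphotactin), made by T cells and natural killer cells, was at 6.28, 6.39 and 6.00 in TGF-β1 arrays 1 to 3 and at 6.18, 6.02 and 8.42 in control arrays 1 to 3. The 5 arrays other than control 3 lay within 6.00 to 6.39. Neither passed with array weights (0.24 ± 0.19, adjusted p = 0.547 for Cx3cl1 and 0.22 ± 0.16, adjusted p = 0.485 for Xcl1), and both had the opposite sign in the unweighted fit (-0.45 and -0.65). Without control 3 the unweighted difference was -0.03 for Cx3cl1 and 0.12 for Xcl1.

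Over the 38 members the median difference was -0.21 in the unweighted fit, where that of all genes was -0.14. With array weights the medians were -0.08 and 0.01, without control 3 they were 0.09 and 0.01, and in the 4-array fit -0.11 and 0.01. The middle of the family lay near that of all genes in these fits, and the larger differences were those of a few members. The median of the 38 values was 6.34, 6.22 and 7.13 in TGF-β1 1 to 3 and 6.38, 6.61 and 7.19 in controls 1 to 3, with TGF-β1 3 and control 3 highest in their groups.

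TGF-β1 3 differed from TGF-β1 1 and 2 in many of these genes. In it, 16 of the 38 were over 1 log2 unit above the mean of TGF-β1 1 and 2, where 7.05% of all genes were, and 0 were over 1 log2 unit below, where 3.44% of all genes were. Cxcl13 was higher by 4.55, Ccl8 by 3.98, Ccl6 by 3.24, Cxcl17 by 3.05, Cxcl5 by 2.85, Ccl19 by 2.69, Ccl2 by 2.65 and Cxcl16 by 2.45 log2 units, genes named here after their values were seen. Cxcl1 (-0.59), Cxcl2 (0.03), Cxcl3 (-0.02) and Cxcl12 (-0.10) did not share this. Between TGF-β1 2 and TGF-β1 1, 0 members were over 1 log2 unit higher in TGF-β1 2 (0.477% of all genes) and 1, Cxcl15, was that much lower (0.231%).

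Some markers of macrophages, neutrophils and mast cells were high in TGF-β1 3 as well, and others in the same lists were not. In that array, over 1 log2 unit above the mean of TGF-β1 1 and 2, stood 3 of 7 macrophage markers, 2 of 3 neutrophil markers, 3 of 4 mast cell markers, 1 of 4 general leukocyte markers and 0 of 5 markers of T cells and natural killer cells. The mean of the 7 macrophage markers was 6.24, 6.20 and 7.01 in TGF-β1 1 to 3 and 6.28, 6.47 and 7.15 in controls 1 to 3. For the 3 neutrophil markers the means were 5.06, 5.03 and 6.86 in TGF-β1 1 to 3, against 4.90, 4.85 and 6.34 in controls 1 to 3. S100a8, a protein of neutrophil granules, was at 3.88, 3.80 and 7.40 in TGF-β1 1 to 3, against 3.77, 3.67 and 4.31 in controls 1 to 3, while Mpo, a neutrophil enzyme, was at 5.35, 5.54 and 5.38 in TGF-β1 1 to 3, against 5.36, 5.35 and 7.33 in controls 1 to 3. Cpa3, a mast cell protease, was at 4.98, 4.84 and 8.42 in TGF-β1 1 to 3, against 4.43, 5.17 and 5.11 in controls 1 to 3, and Kit, the receptor of mast cells that epithelial progenitors of the gland also carry, at 12.39, 11.92 and 11.38 in TGF-β1 1 to 3, against 11.92, 11.45 and 7.58 in controls 1 to 3. Pf4, a platelet and macrophage chemokine whose symbol the rule does not take, was at 7.43, 7.31 and 10.28 in TGF-β1 1 to 3, against 7.45, 7.50 and 8.77 in controls 1 to 3, whereas the platelet marker Itga2b was at 7.97, 7.95 and 7.63 in TGF-β1 1 to 3, against 7.90, 8.05 and 9.47 in controls 1 to 3. Of the other lists, 1 of 4 endothelial, 1 of 3 platelet (Pf4), 2 of 4 epithelial (Krt8 and Krt18), 0 of 2 B cell and 0 of 3 mesenchymal markers and 2 of 11 chemokine inducers stood that high, and Cdh1 was over 1 log2 unit lower. The part of these cells in the chemokine values of TGF-β1 3 was not tested.

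**Figure D4:**
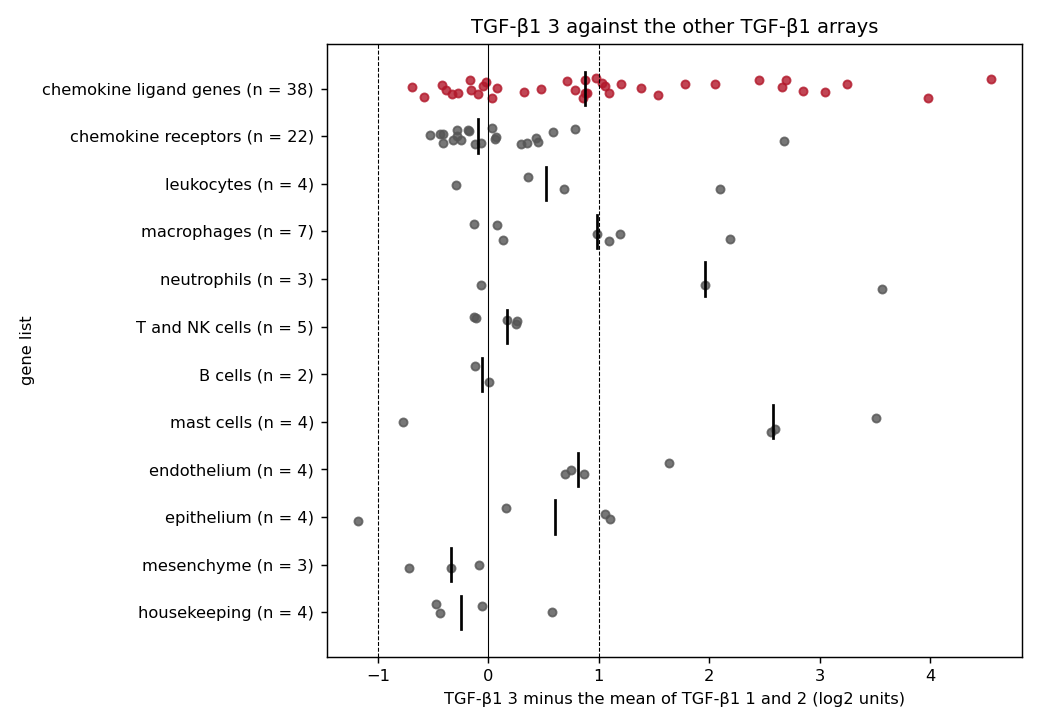
The log2 value of each gene in TGF-β1 3 minus its mean in TGF-β1 1 and 2, for the 38 chemokine ligand genes (red) and for receptor and marker lists (grey), with the list median as a bar and dashed lines at 1 log2 unit. The chemokine ligands reach 4.55 and have a median of 0.88, and the mast cell and neutrophil markers reach 3.51 and 3.56.

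Of 22 measured chemokine receptors, 0 passed in either direction in any of 4 fits (unweighted, array weights, without control 3, and 4 arrays). Of all genes, 3.44% were lower and 3.45% higher with array weights. In the 4-array fit these shares were 1.45% and 1.14%, and in the other fits they were 0%. The smallest adjusted p of the receptors was 0.145 with array weights, for Ccrl2, an atypical receptor that presents chemerin, which differed by -0.36 ± 0.13. Cxcr4, the receptor of Cxcl12, was at 7.61, 7.69 and 8.43 in TGF-β1 arrays 1 to 3 and at 7.80, 8.11 and 7.64 in control arrays 1 to 3, and its difference with array weights was -0.35 ± 0.16 (adjusted p = 0.263). Ackr3, which binds and removes Cxcl12, was at 5.88, 6.49 and 6.62 in TGF-β1 1 to 3, against 5.95, 6.16 and 8.15 in controls 1 to 3. Ccr2, the receptor of Ccl2 and Ccl7, was between 3.65 and 3.96 in the 5 arrays other than control 3, under the lower quartile of each of them. Cxcr2 was at 5.36, 5.41 and 4.95 in TGF-β1 1 to 3, against 5.12, 4.99 and 5.96 in controls 1 to 3 and Ccr1, a receptor of several inflammatory ligands, at 4.35, 4.43 and 7.06 in TGF-β1 1 to 3, against 4.36, 4.30 and 4.32 in controls 1 to 3, with TGF-β1 3 alone high. The table holds no measure of background, so a low value cannot be read as absence.

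Of 11 measured cytokines and regulators that induce or restrain chemokine genes, 5 fell with array weights, 0 rose and 6 did not pass, where 3.44% of all genes fell. Tnfaip3, which restrains NF-κB, was at 7.05, 6.68 and 7.18 in TGF-β1 arrays 1 to 3 and between 7.43 (control 3) and 9.30 (control 2) in the controls, with every TGF-β1 array below every control. It fell by 2.27 ± 0.17 (adjusted p = 8.69e-05), against -1.61 ± 0.53 unweighted (adjusted p = 0.776). Il6, an inflammatory cytokine, was at 5.31, 6.33 and 6.35 in TGF-β1 arrays 1 to 3 and at 7.96, 7.90 and 4.33 in control arrays 1 to 3. All TGF-β1 arrays were below controls 1 and 2, and control 3 was the lowest array. It fell by 2.19 ± 0.27 (adjusted p = 0.0011), and its unweighted difference was -0.74 ± 0.97 (adjusted p = 0.779). Irf1, a transcription factor induced by interferon and NF-κB, was at 8.06, 7.71 and 7.99 in TGF-β1 arrays 1 to 3 and at 8.80, 9.44 and 8.31 in control arrays 1 to 3, and fell by 1.32 ± 0.19 (adjusted p = 0.00224). Nfkbia, which encodes the inhibitor IκBα and is itself switched on by NF-κB, was at 8.58, 8.23 and 9.50 in TGF-β1 arrays 1 to 3 and at 9.56, 10.08 and 7.18 in control arrays 1 to 3, and fell by 1.41 ± 0.22 (adjusted p = 0.00334). In Nfkbia TGF-β1 3 lay just under control 1, and control 3 was the lowest array. Tnf, a cytokine that activates NF-κB, was at 5.58, 5.82 and 6.60 in TGF-β1 1 to 3, against 6.01, 7.00 and 6.64 in controls 1 to 3, and fell by 1.02 ± 0.25 (adjusted p = 0.0288), a call that ended in the 4-array fit (-0.80 ± 0.30, adjusted p = 0.242). Unweighted, the difference was -0.93 ± 0.38 for Irf1 and -0.55 ± 0.42 for Tnf (adjusted p = 0.776 for both). For Nfkbia it was -0.17 ± 0.78 (adjusted p = 0.924). The interferon genes Ifng and Ifnb1 and the cytokines Il1a and Il1b did not pass, nor did Rela and Il17a. This list, like the others, was chosen with earlier results of these data known.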

How the data were processed

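RNA of TGF-β1-treated and untreated salivary glands was measured on 6 Affymetrix arrays, 3 per group, grouped by their labels. The authors deposited a log2 signal for each probe set. RMA is the method that the submitters' processing notes name, without a version, and no further normalization was applied. Of 22206 probe sets 19572 had 1 symbol, 0 had several and 2634 were unnamed here. Each gene was represented by its brightest probe set on average. Arrays have no read depth, so their number limits the precision.

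limma 3.58.1 in R 4.3.3 compared the groups (lmFit and eBayes, two-sided, group as the only term, Benjamini-Hochberg over 19505 genes), unweighted and with array weights (arrayWeights, REML). The weights were 0.0338 for control 3, 0.398 for TGF-β1 3 and 1.65 to 4.52 for the others. Their estimation stopped before its tolerance was reached, and limma then treats them as known, which makes these p-values too small. A gene is said to have fallen from the array-weighted fit, since the unweighted fit passed 0 genes. That choice, the members and the lists were made with earlier results of these data known.

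Values in every array and statistics are given for members that passed in either fit and for 16 set symbols, and values for members with a mean above the median gene. Statistics of Cxcl3, Cxcl17 and Ccl11, and values of Ccl1, Ccl3, Ccl8, Ccl12, Ccl19 and Cxcl13, were added after these were seen. Alternatives were fits without arrays, other normalization, a filter, mean probe sets, another prior and a replicate block. Promoter windows are RefSeq's (GRCm38.p6); the build of the arrays is not given in the sources used here.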

Additional observations from a re-analysis of the deposited data

How the results depend on the processing

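The unweighted fit passed 0 of 19505 genes and 0 of the 38 members with all 6 arrays (389 genes and 3 members at an unadjusted p under 0.05). This count was also 0 without control 3, with any other array left out, and under quantile normalization, median centring, the filter, mean probe sets, the trended and robust prior and the replicate block. It moved to 1342 genes and 6 members with array weights, to 544 and 3 without control 3 with array weights, and to 505 and 4 without control 3 and TGF-β1 3. Chosen after seeing the data, the array-weighted fit without each of the other 5 arrays in turn passed between 0 and 375 genes (8 without TGF-β1 1, 12 without TGF-β1 2, 375 without TGF-β1 3, 0 without control 1 and 0 without control 2), and between 0 and 4 members. The members' median difference, -0.21, moved by less than the spread between arrays (0.46) under the 15 alternatives fixed for it. That spread is larger than the difference, so a change of sign can stay within it. The sign was opposite without control 3 (0.09). In the array-weighted fits with 1 array left out the median ran from -0.51 to 0.42. It moved beyond that spread, with the opposite sign, without TGF-β1 1 (0.30) and without TGF-β1 2 (0.42).

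Of the 19 members with statistics, Cxcl1, Cxcl2, Cxcl12, Ccl2 and Ccl7 kept their sign under the alternatives fixed for them and in the array-weighted fits with 1 array left out. Ccl20 did so but for the array-weighted fit without TGF-β1 3 (-0.06). The other 13 changed sign in 43 values. With array weights these were 0.20 for Ccl25, 0.011 for Ccl5, 0.24 for Cx3cl1, -0.66 for Cxcl16, -1.17 for Cxcl5, 0.22 for Xcl1 and -0.97 for Ccl11. Without control 3 with array weights they were 0.16 for Ccl25, 0.11 for Ccl5, 0.091 for Cx3cl1, -0.66 for Cxcl16, -0.93 for Cxcl5, 0.20 for Xcl1, -0.69 for Ccl11, -0.16 for Cxcl17 and 0.0056 for Cxcl3. Without TGF-β1 3 and control 3 they were 0.20 for Ccl25, 0.13 for Ccl5, 0.11 for Cx3cl1, -0.76 for Cxcl16, -1.10 for Cxcl5, 0.24 for Xcl1, -0.73 for Ccl11 and -0.40 for Cxcl17. Quantile normalization gave -0.25 for Ccl28. With 1 array left out, differences ran from -0.24 to 0.81 for Ccl28 (negative without TGF-β1 3, control 1 or control 2), from -0.92 to 0.15 for Cxcl10 (positive without TGF-β1 2 or control 2), from -0.79 to 0.29 for Cxcl9 (positive without TGF-β1 1, TGF-β1 2 or control 3) and from -0.48 to 0.29 for Cxcl14 (positive without TGF-β1 1 or control 3). They ran from -0.39 to 0.79 for Ccl11 (negative without TGF-β1 3 or control 3), from -0.17 to 1.48 for Cxcl17 (negative without TGF-β1 3), from -0.58 to 0.92 for Cxcl5 (negative without TGF-β1 3 or control 3), from -0.40 to 0.87 for Cxcl16 (negative without TGF-β1 3), from -0.51 to 0.038 for Ccl5 and from -1.07 to 0.12 for Xcl1 (both positive without control 3). The cause was not tested.

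The labels name no pairs, so the replicate numbers were not taken as pairs. Same-numbered arrays deviated from their group means at correlations of -0.07, -0.01 and -0.05. Those means include control 3 and TGF-β1 3, which stand apart, so these correlations cannot decide on pairing. With the replicate block 0 members passed and 322 genes had an unadjusted p under 0.05 (limma). The number of arrays, 3 per group with 1 apart in each, and the lack of a background measure limit what can be read from low values.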

Other observations

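Controls 1 and 2, which correlated at 0.989 over all genes, were over 1 log2 unit apart in 3 chemokine ligand genes, where 0.528% of all genes were this much higher in control 2. Ccl11 was higher in control 2 by 1.26, Cxcl5 by 1.13 and Cxcl13 by 1.08 log2 units, and 0 members were lower by that much (0.502% of all genes). These 3 genes were named after their values were seen.

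In control 3, 17 members were over 1 log2 unit above the mean of controls 1 and 2 and 6 were below it by that much, where 33.6% and 25.1% of all genes were. Ccl12 (2.47), Xcl1 (2.32), Ccl6 (2.30) and Cxcl3 (2.07) lay furthest above the other controls, and Cxcl10 (-1.99), Ccl2 (-1.94), Ccl11 (-1.72) and Cxcl5 (-1.58) lay lowest. The narrower range of values in control 3 was not corrected for in these differences.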
